A study of Mus musculus with 14 samples.

Results

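The hepatocyte input library of wild type (WT) mice was set against the 2 whole-liver input libraries of WT mice, as 3 of the 14 samples of the series. An input library is the RNA sequenced without immunoprecipitation in an experiment that maps N6-methyladenosine (m6A) on RNA, so it measures gene expression. The study asked how loss of Mettl3, the methyltransferase that writes m6A, changes the liver, and it profiled both isolated hepatocytes and whole liver. The hepatocyte library (WT replicate 1) came from C57BL/6 male mice of 8 weeks per its label, as did both livers (WT replicates 2 and 3). Hepatocytes were obtained by collagenase perfusion and low-speed pelleting, and livers were frozen whole. The mice came from crosses of albumin-Cre with Mettl3-floxed mice, and the study's methods write the WT genotype as Alb-cre Mettl3-/-, with no floxed allele named. The labels do not say how many animals went into a library. The conditional knockout (cKO) mice, used here only where values are set side by side, carried that Cre with both Mettl3 alleles floxed, with Cre driven in cells that express albumin, which are the hepatocytes. Genes were matched by gene identifier, with symbols that agreed between the sets. Of 22564 genes, 10198 had a mean of at least 1 FPKM (fragments normalized for transcript length and sequencing depth) over the 3 libraries.

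Hepatocytes are the parenchymal cells of the liver and make most plasma proteins, bile acids, glucose and urea. Kupffer cells, the resident macrophages, line the sinusoids together with fenestrated endothelial cells, and stellate cells lie between endothelium and hepatocytes. Low-speed pelleting is meant to keep the large hepatocytes and to leave the smaller cells in the supernatant. Immediate early genes such as Fos and Jun are transcribed within minutes of many stimuli and need no new protein.

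The hepatocyte library and the livers were deposited in separately normalized tables, so levels are given as scaled FPKM, that is FPKM divided by a median-ratio factor computed over the 3 libraries. These factors were 0.612 for hepatocytes and 1.28 and 1.28 for the livers. Without them the median of all genes was at -0.80 on the log2 scale, so every direction below is relative to that shift. A difference is on the log2(scaled FPKM + 1) scale, which understates the change of low genes. A gene was called higher or lower when the hepatocyte value was at least 2-fold from each liver on that scale, and the gap between the livers served as the spread. With 1 hepatocyte library no test across libraries was possible, and tissue, isolation, table and library cannot be told apart. The estimated fragments on genes were 1737350 in hepatocytes and 3261253 and 3620784 in the livers, and a gene at 1 FPKM in hepatocytes rested on a median of 11.9 fragments.

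Before the comparisons, 2 features of the hepatocyte library stood against its labels. Another, the level of Gys2 beside that of cKO hepatocytes, is given with the cKO libraries. The first was sex. The summed deposited FPKM of the 4 Y-linked genes Ddx3y, Kdm5d, Eif2s3y and Uty was 2.38 in the WT hepatocyte library. It was 36.1 and 27.7 in the male WT livers and 0.266 in the female liver titled WT. The genotype label of that female library reads Mettl3 cKO and thus conflicts with its title, and the other female liver, labelled cKO, had a sum of 0.251. All 4 genes lay between the male WT livers and both female livers. Kdm5d was not called lower, and it was listed near 0 in male cKO liver replicate 2. Eif2s3y, a translation initiation factor gene on the Y chromosome, was at 1.09 FPKM as deposited in hepatocytes, at 18.2 and 13.9 in the male livers and at 0.141 in the female liver titled WT. In the cKO hepatocyte library the Y-linked sum was 12, also under the 24.6 and 30.4 of the male cKO livers. The second feature was the level of genes of other liver cell types, which are described with their values after the overall counts.

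Liver genes with a known sex bias, a list chosen after these values were seen, gave a less even picture. Of 17 male-biased genes, 14 were called lower in hepatocytes and none higher, with a median difference of -3.60. Over all genes 10.8% were called lower, and 28.6% in the highest of 5 bins of mean level. Their summed deposited FPKM was 378 in hepatocytes against 6982 and 9784 in the WT livers and 332 and 506 in the female livers titled WT and cKO. The male-labelled cKO livers were low as well, at 313 and 581, although their Y-linked genes were not. The WT hepatocyte sum thus lay between those of the 2 cKO livers. In cKO hepatocytes the sum was 2646, between the cKO livers and the WT livers. Of the 26 female-biased genes 17 passed the 1 FPKM filter, and 7 of these were called higher and none lower. The share called higher over all genes was 14.4%. The summed deposited FPKM of the 26 genes was 157 in hepatocytes, 119 and 45.9 in the WT livers and 1993 in the female liver titled WT. It was 128 in the female liver titled cKO, 481 in cKO hepatocytes and 275 and 172 in the male cKO livers, so this sum did not order the libraries by labelled sex. Sult2a2, a hydroxysteroid sulfotransferase with near-identical copies, was at 6.57 FPKM as deposited in hepatocytes, was listed at 0 in both WT livers and was at 129.8 in the female liver titled WT. The part that sex plays in any difference below was not tested.

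**Figure D1:**
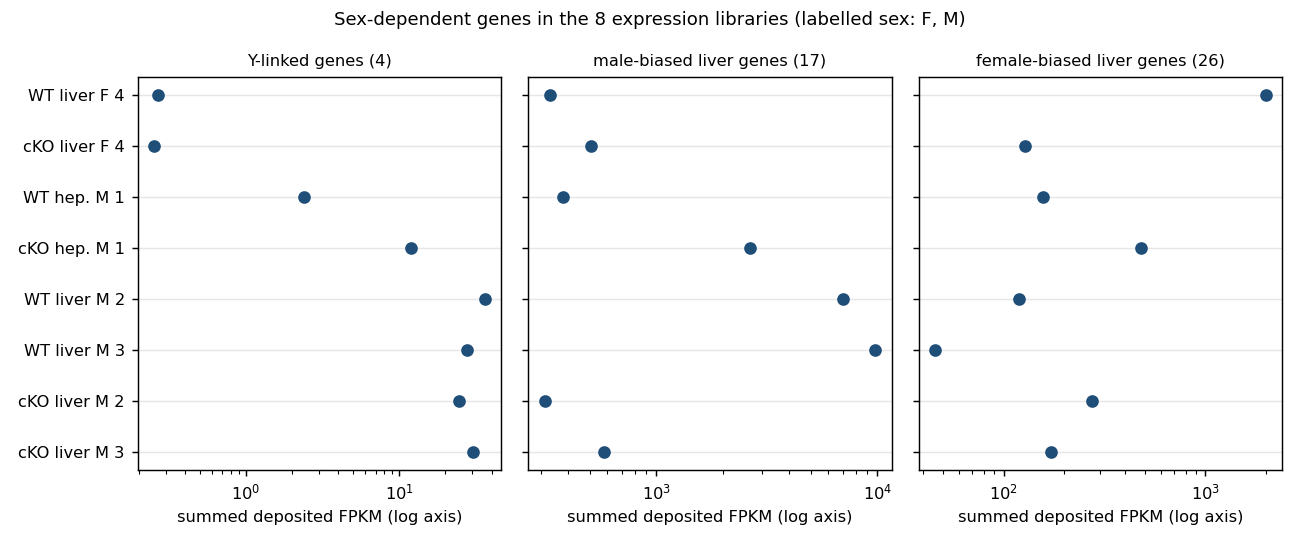
Summed FPKM as deposited (log axis) of Y-linked, male-biased and female-biased liver genes in each of the 8 expression libraries, 1 point per library, with the labelled sex as F or M. The WT hepatocyte library, labelled male, is at 2.38 for the Y-linked genes, between the female libraries (0.251 and 0.266) and the male livers (24.6 to 36.1).

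Across all genes the hepatocyte library differed from both livers more than the livers differed from each other. Of the 10198 genes, 1466 (14.4%) were called higher in hepatocytes and 1103 (10.8%) lower. The shares moved with mean level. In the lowest of 5 bins 15.5% were called higher and 3.04% lower, and in the highest 9.71% and 28.6%. The counts of each list below stand beside these shares. Genes called higher were 57.1% of these calls, and 13.8% with FPKM as deposited. Between the livers, 1139 genes (11.2%) lay at least 2-fold apart in either direction. The median absolute gap was 0.67 from hepatocytes to the mean of the livers and 0.37 between livers. Spearman's rho across genes, which are not independent replicates, was 0.626 and 0.611 for hepatocytes against each liver and 0.879 between livers. Of the tested genes, 273 were listed under 0.01 FPKM in at least 1 library. Such a value can be a failed estimate, since 8 mitochondrially encoded genes, among them mt-Co1, a cytochrome c oxidase subunit that every cell uses, were listed at 0 in hepatocytes and none in the livers. No fold is given from such values and none for the mitochondrially encoded genes, which took 38.5% of FPKM in hepatocytes and 17.6% and 15.5% in the livers.

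All 21 genes of Kupffer cells and macrophages were called higher in the library labelled hepatocytes, with a median difference of 2.44 against 0.01 over all genes. Their summed level was 1475 scaled FPKM in hepatocytes and 256 and 213 in the livers. The level of Clec4f was 147 scaled FPKM in hepatocytes against 18.1 and 19.8 in the livers. The gene encodes a lectin that in mouse marks Kupffer cells, and its hepatocyte level was 7.75 times the liver mean, with a 95% Poisson interval of 137 to 157 scaled FPKM that covers counting error only. For Marco, hepatocytes had 52.7 scaled FPKM and the livers 1.42 and 2.02. Marco is a scavenger receptor of macrophages and was among the most distant members, at 30.6 times the liver mean. Hepatocytes had 137 scaled FPKM of C1qb, and the livers 23.1 and 30.5. Cd5l reached 168 scaled FPKM in hepatocytes, compared with 15.4 and 18.8 in the livers. Timd4 was at 12.5 scaled FPKM in hepatocytes and at 1.52 and 2.71 in the livers. These encode a chain of complement C1q, a secreted macrophage protein and a phosphatidylserine receptor of resident macrophages, and each was above both livers. Csf1r, the receptor for the macrophage growth factor, was at 61.3 in hepatocytes and 1.64 in liver replicate 2 and was listed near 0 in replicate 3, so no fold is given. In bulk RNA, more cells of a type and more RNA per cell cannot be told apart.

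Genes of sinusoidal endothelium showed the same direction. Of 22 genes, 18 were called higher and none lower, with a median of 2.02 and summed levels of 767 in hepatocytes against 182 and 143. The level of Stab2 was 68.4 scaled FPKM in hepatocytes against 18.1 and 13.4 in the livers. Stab2 is a hyaluronan receptor of these cells. For Pecam1, hepatocytes had 32.5 scaled FPKM and the livers 3.91 and 6.67. Hepatocytes had 34.6 scaled FPKM of Bmp2, and the livers 3.03 and 1.52. Bmp2, a ligand of the endothelium that acts on hepatocytes in iron control, was 15.2 times the liver mean, and Pecam1, an adhesion molecule of endothelium, 6.15 times. Wnt2 reached 7.14 scaled FPKM in hepatocytes, compared with 0.386 and 0.56 in the livers. Wnt2 is a Wnt ligand of central endothelium, and it too lay above both livers. The members not called were Gpr182, Gata4, Rspo3 and Vwf, and Vwf, a marker of large vessels, was at 0.907 in hepatocytes and at 1.63 and 2.71 in the livers.

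Stellate cell and fibroblast genes were split. Of 21 genes, 8 were called higher and 1 lower, with a median of 0.88 that turned to -0.01 without scaling. Ecm1 was at 91.4 scaled FPKM in hepatocytes and at 38.7 and 35.8 in the livers. The level of Lrat was 9.21 scaled FPKM in hepatocytes against 3.14 and 1.19 in the livers. Lrat makes the retinyl esters that quiescent stellate cells store, and Ecm1 is a secreted matrix protein. For Col1a1, hepatocytes had 2.93 scaled FPKM and the livers 6.05 and 1.38. This collagen gene of activated fibroblasts lay between the livers. Acta2, smooth muscle actin, was listed at 0 in hepatocytes and at 1.6 and 35.9 in the livers.

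Blood cell genes divided by lineage. Of 18 lymphocyte genes 7 passed the filter, of which 4 were called higher and none lower. The filter includes the hepatocyte value, and the median of this list was 1.81 with it and 0.97 without. Ptprc, the pan-leukocyte antigen CD45, was at 25.5 in hepatocytes and at 3.84 and 2.8 in the livers. Of 11 neutrophil genes 3 passed the filter, some only through the hepatocyte library, so their calls as higher are a description of those members. S100a9 was at 7.07 in hepatocytes and listed at 0 in both livers. Of 14 genes of red blood cells 5 passed the filter, and these were called lower, with a median of -2.86 and summed levels of 8.15 against 59.5 and 182. Hepatocytes had 2.01 scaled FPKM of Alas2, and the livers 20.7 and 21.1. Alas2 is the erythroid enzyme that starts heme synthesis, while the globin genes are near-identical copies whose reads could be split. MHC class II genes, which present antigen on macrophages, B cells and dendritic cells, were called higher for 5 of 6 members. H2-Aa reached 146 scaled FPKM in hepatocytes, compared with 7.97 and 10.3 in the livers. Cd74 was at 316 scaled FPKM in hepatocytes and at 31.5 and 40 in the livers. Cd74 is the invariant chain that guides class II molecules, and it was 8.84 times the liver mean. Of 13 cholangiocyte genes 5 passed the filter, of which 1 was called higher (Cd24a) and 1 lower, and no mesothelial gene passed the filter.

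**Figure D2:**
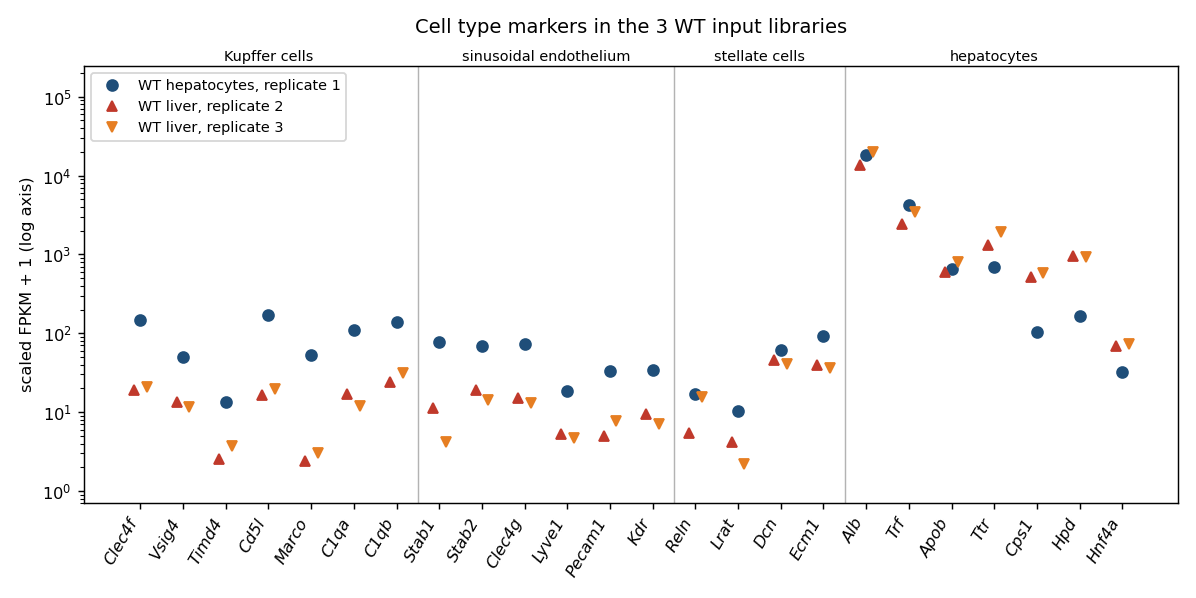
Scaled FPKM plus 1 (log axis) of marker genes of Kupffer cells, sinusoidal endothelium, stellate cells and hepatocytes, with 1 point for each of the 3 WT input libraries. The Kupffer and endothelial genes sit higher in the library labelled hepatocytes than in both livers, with Clec4f at 147 against 18.1 and 19.8, whereas Alb and Apob lie within the range of the livers.

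Every listed hepatocyte product that passed the filter was detected in the hepatocyte library. Of 21 hepatocyte products, none was called higher and 7 were called lower, with a median of -0.97. That is 33.3% called lower, against 10.8% of all genes and 28.6% of the genes in the highest of 5 bins of mean level. Under quantile normalization this median was -0.010, so its size depended on the scaling. The level of Alb was 18268 scaled FPKM in hepatocytes against 13756 and 19606 in the livers. The albumin gene thus lay between the livers. For Trf, hepatocytes had 4241 scaled FPKM and the livers 2410.4 and 3474. Hepatocytes had 659 scaled FPKM of Apob, and the livers 600.0 and 809.7. Transferrin and apolipoprotein B differed from the livers by 0.55 and -0.08. Cps1 reached 104 scaled FPKM in hepatocytes, compared with 522 and 576 in the livers. Hpd was at 166 scaled FPKM in hepatocytes and at 947 and 920.2 in the livers. Cps1, the entry enzyme of the urea cycle, and Hpd, an enzyme of tyrosine breakdown, were lower than both livers, with log2 differences of -2.39 and -2.48. The level of Apoa2 was 1005 scaled FPKM in hepatocytes against 6163 and 7704 in the livers. Apoa2, a small apolipoprotein of HDL, had the lowest difference of the list.

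Transcription factors that define hepatocytes were called higher for 2 and lower for 9 of 21 genes. For Hnf4a, hepatocytes had 31.2 scaled FPKM and the livers 68.7 and 73.1. Hepatocytes had 4.98 scaled FPKM of Onecut1, and the livers 31.8 and 34.8. Foxa1 reached 0.769 scaled FPKM in hepatocytes, compared with 5.27 and 5.94 in the livers. Foxa1 rested on 8 fragments in hepatocytes, and each of these developmental regulators lay under both livers. The members called higher were Cebpb and Esrra. Cebpb was at 75 scaled FPKM in hepatocytes and at 25.9 and 14.6 in the livers. Cebpb is a factor of the acute-phase response and its level was 3.7 times the liver mean.

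Calls among zonated genes were mostly lower in both zones of the lobule. Of 19 pericentral genes 10 were called lower and none higher, and of 19 periportal genes 7 were called lower and 1 higher, with medians of -1.13 and -0.82. The shares called lower were 52.6% and 36.8%, against 28.6% in the bin of highest mean level. The periportal median depended on the liver, at -0.91 against replicate 2 and -0.12 against replicate 3. The level of Glul was 84 scaled FPKM in hepatocytes against 359 and 413 in the livers. For Cyp2e1, hepatocytes had 507 scaled FPKM and the livers 2768 and 2612. Glutamine synthetase (Glul) and the ethanol-oxidizing Cyp2e1 are pericentral, and their liver values were close to each other. Hepatocytes had 202 scaled FPKM of Ass1, and the livers 944 and 1252. Cyp2f2 reached 117 scaled FPKM in hepatocytes, compared with 329 and 433 in the livers. Ass1, a urea cycle enzyme, and Cyp2f2 are periportal. The periportal gene called higher was Ctsc, a lysosomal protease also made by immune cells, at 69.1 against 22.7 and 22.5. No call was made for G6pc, the last enzyme of glucose production, whose livers were far apart, at 44.7 in hepatocytes and at 182 and 35.1 in the livers.

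Amino acid, drug and bile acid metabolism were called lower at shares above the 10.8% of all genes and the 28.6% of the bin of highest mean level, with no member called higher in any of the 3 lists. The counts were 19 of 35 genes for the urea cycle and amino acid breakdown (median -1.37), 20 of 36 for cytochrome P450 enzymes and conjugation (median -1.39), and 12 of 19 for bile acid synthesis and transport (median -1.26). Aass was at 14 scaled FPKM in hepatocytes and at 88.4 and 89.2 in the livers. Aass begins lysine breakdown, and its livers were close to each other. The level of Fah was 45.4 scaled FPKM in hepatocytes against 186 and 217 in the livers. Fah is the last enzyme of tyrosine breakdown. For Adh4, hepatocytes had 10.7 scaled FPKM and the livers 62.7 and 48.7. Hepatocytes had 119.7 scaled FPKM of Gsta3, and the livers 749.6 and 837. Adh4 oxidizes alcohols, and Gsta3 is a glutathione transferase of a multigene family. Slco1a1 reached 1.75 scaled FPKM in hepatocytes, compared with 92.5 and 79.7 in the livers. Slco1a1, a basolateral organic anion transporter and also 1 of the male-biased genes above, rested on 18 fragments in hepatocytes. Cyp7b1 was at 2.46 scaled FPKM in hepatocytes and at 40.7 and 41 in the livers. The level of Slc10a1 was 37.8 scaled FPKM in hepatocytes against 220.2 and 187 in the livers. For Cyp7a1, hepatocytes had 5.01 scaled FPKM and the livers 25 and 12. Cyp7a1 begins the classic route of bile acid synthesis, Cyp7b1 acts in the alternative route, and Slc10a1 takes bile acids up from blood. All 4 of these bile acid genes lay under both livers. The higher levels of other cell types and the lower male-biased genes moved with these metabolic lists, and their part was not tested.

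Many lipid synthesis genes were lower. Of 20 genes of fatty acid and triglyceride synthesis 9 were called lower and 1 higher, and of 23 genes of cholesterol synthesis and LDL uptake 11 were called lower and 1 higher. Hepatocytes had 6.86 scaled FPKM of Fasn, and the livers 158 and 66.2. Fatty acid synthase differed by -3.72, with livers that themselves lay 1.24 apart on the log2 scale. Scd1 reached 119 scaled FPKM in hepatocytes, compared with 499 and 911 in the livers. Elovl6 was at 1.46 scaled FPKM in hepatocytes and at 21.9 and 9.23 in the livers. Scd1 desaturates and Elovl6 elongates the product of Fasn. The level of Hmgcs1 was 8.05 scaled FPKM in hepatocytes against 40.2 and 126 in the livers. For Sc5d, hepatocytes had 28.5 scaled FPKM and the livers 151 and 286. Hmgcs1 and Sc5d act early and late in cholesterol synthesis. The gene of triglyceride synthesis called higher was Dgat1, which adds the last fatty acid. Hepatocytes had 10.4 scaled FPKM of Dgat1, and the livers 4.3 and 2.54. Fatty acid oxidation and ketogenesis had 10 of 26 genes called lower and 2 higher. Fabp1 reached 330.4 scaled FPKM in hepatocytes, compared with 2759 and 2402 in the livers. Fabp1 carries fatty acids within the cell and lay under both livers. Pdk4 was at 27.4 scaled FPKM in hepatocytes and at 1.34 and 4.21 in the livers. Pdk4, a kinase that shuts the pyruvate dehydrogenase complex, was the opposite case, at 9.87 times the liver mean.

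Glucose and glycogen genes had calls in both directions. Of 17 genes of gluconeogenesis and hepatic glucose handling 5 were called lower and none higher. That is 29.4% called lower, near the 28.6% of the bin of highest mean level. Of 16 glycolytic genes of other tissues 6 (37.5%) were called higher and none lower, with a median of 0.60 that was -0.30 without scaling. The level of Pklr was 3.77 scaled FPKM in hepatocytes against 32.7 and 22.8 in the livers. For Pkm, hepatocytes had 26.3 scaled FPKM and the livers 5.46 and 5.39. The liver form of pyruvate kinase (Pklr) was thus under both livers and the form of most other tissues (Pkm) above both. Hepatocytes had 4.44 scaled FPKM of Hk2, and the livers 0.344 and 0.504. Hk3 reached 13 scaled FPKM in hepatocytes, compared with 0.401 and 4.28 in the livers. Hk2 and Hk3 are hexokinases that hepatocytes normally express little. Among 16 glycogen genes 3 were called higher and 6 lower. Gys2 was at 14.2 scaled FPKM in hepatocytes and at 57.2 and 42.9 in the livers. The level of Pygl was 22.4 scaled FPKM in hepatocytes against 63.5 and 84.8 in the livers. For Pygb, hepatocytes had 4.58 scaled FPKM and the livers 0.856 and 1. Gys2 and Pygl, the liver forms of glycogen synthase and phosphorylase, lay under both livers, and Pygb, the brain form of the phosphorylase, above both.

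Lists of secreted plasma proteins had medians nearer to 0. The medians were -0.05 for 20 complement genes, -0.13 for 17 apolipoprotein genes, -0.31 for 22 coagulation genes and -0.33 for 23 acute-phase genes, and under quantile normalization all 4 turned positive, at 0.34, 0.41, 0.61 and 0.16. Without liver replicate 3 the first 3 medians were 0.14, 0.10 and -0.05, so their direction or size rested on 1 liver. Hepatocytes had 1991 scaled FPKM of C3, and the livers 1752 and 1966. F2 reached 597 scaled FPKM in hepatocytes, compared with 259.6 and 328 in the livers. Complement C3 differed by 0.10, and prothrombin (F2) by 1.03 without reaching 2-fold from both livers. Hamp was at 154 scaled FPKM in hepatocytes and at 1369 and 1132 in the livers. The level of Saa4 was 12.8 scaled FPKM in hepatocytes against 189 and 69.8 in the livers. Hepcidin (Hamp), the hormone that lowers iron uptake, and Saa4, a serum amyloid gene of a family with similar copies, were called lower. For Cd14, hepatocytes had 21.7 scaled FPKM and the livers 2.05 and 1.05. Hepatocytes had 27.6 scaled FPKM of Socs3, and the livers 1.6 and 1.66. Cd14, a macrophage coreceptor for endotoxin, and Socs3, a feedback inhibitor of cytokine signals, were called higher. In the growth hormone and IGF axis 8 of 20 genes were called lower and 2 higher. Hsd3b5 reached 0.8 scaled FPKM in hepatocytes, compared with 48.6 and 89.4 in the livers. Igf1 was at 65.4 scaled FPKM in hepatocytes and at 218 and 195 in the livers. Hsd3b5, a male-biased steroid dehydrogenase in a cluster of close paralogs, rested on 4 fragments in hepatocytes, and Igf1 is the circulating growth factor of that axis.

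Immediate early genes gave the highest median of any list, at 3.77. Of 30 genes 28 passed the filter, of which 25 were called higher and none lower, with summed levels of 2020.1 in hepatocytes against 205 and 161 in the livers. The level of Fos was 245 scaled FPKM in hepatocytes against 2.43 and 0.3 in the livers. Fos, a subunit of the AP-1 transcription factor, rested on 1306 fragments in hepatocytes and lay at 179 times the liver mean. Its paralog Fosb was at 54.2 in hepatocytes and listed at 0 in both livers, so it passed the filter only through the hepatocyte library, and without the filter the median of the list was 3.52. For Jun, hepatocytes had 172 scaled FPKM and the livers 9.47 and 11.9. Hepatocytes had 107 scaled FPKM of Egr1, and the livers 1.39 and 10.9. Atf3 reached 61.8 scaled FPKM in hepatocytes, compared with 0.503 and 2.14 in the livers. The livers differed between themselves in Egr1 and Atf3, and hepatocytes lay above both. Klf2 was at 100.03 scaled FPKM in hepatocytes and at 1.54 and 0.525 in the livers. Klf2 is a zinc finger factor that endothelium also expresses. The level of Dusp1 was 287 scaled FPKM in hepatocytes against 34.6 and 9.83 in the livers. For Btg2, hepatocytes had 86.6 scaled FPKM and the livers 2.61 and 4.05. Hepatocytes had 192 scaled FPKM of Zfp36, and the livers 63.6 and 48.6. Dusp1 inactivates MAP kinases, Btg2 halts proliferation and Zfp36 speeds the decay of AU-rich mRNAs, and all were called higher. The members not called were Ctgf, Gadd45g and Trib1. Markers of macrophages and endothelium were also higher in this library, and their part in these values was not tested.

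Of 24 targets of NF-kB, cytokines and chemokines 19 passed the filter, with 18 called higher, none lower and a median of 3.36. Members such as Tnf, Cxcl2 and Ccl4 passed only through the hepatocyte library, and without the filter the median was 2.78. Tnfaip3 reached 80.5 scaled FPKM in hepatocytes, compared with 0.731 and 1.45 in the livers. Nfkbia was at 91.5 scaled FPKM in hepatocytes and at 18.2 and 15 in the livers. Both encode inhibitors that shut off NF-kB. The level of Cxcl1 was 35.3 scaled FPKM in hepatocytes against 2.1 and 2.8 in the livers. For Il1b, hepatocytes had 33.6 scaled FPKM and the livers 1.78 and 1.36. Hepatocytes had 17.6 scaled FPKM of Tnf, and the livers 0.103 and 0.113. Cxcl1 attracts neutrophils, and Il1b and Tnf are cytokines of macrophages. Cxcl2 was at 45.5 scaled FPKM in hepatocytes, from 142 fragments, and Ccl4 at 22, and both were listed at 0 in both livers. The exception was Bcl3, at 6.7 in hepatocytes and at 9.18 and 16.3 in the livers. Several of these genes are made by macrophages as well as by hepatocytes, and the macrophage markers above moved with them. The part of that shift in these values was not tested.

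The promoters of these genes were searched for the words that named factors bind. RefSeq promoters of GRCm38.p6, which run from 250 bases before to 50 after the start, were found for 7706 of 10186 tested symbols, and all words were read on both strands. The NF-kB word, which begins GGGA, ends TTTCC and takes any base between them, was in 0.376% of all these promoters and in 3 of the 13 available for the list. The 30-base windows show the 3 promoters of the list that held it, with the word in capitals.
Cxcl1: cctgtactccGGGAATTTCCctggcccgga
Cxcl2: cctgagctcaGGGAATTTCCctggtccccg
Nfkbia: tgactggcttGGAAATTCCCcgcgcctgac
They lie on chr5:90891164-90891193, chr5:90903792-90903821 and chr12:55492657-55492686, and the Nfkbia window carries the word on the reverse strand. The Cxcl1 and Cxcl2 windows hold the same word in the same orientation. Over all genes the NF-kB word was in 0.672% of promoters of genes called higher and 0.238% of those called lower. The AP-1 word TGANTCA was in 5.09% of all, 6.43% of the higher and 6.06% of the lower promoters.
The word GAGGAAGT of PU.1, a factor of macrophages and other blood cells, was in 3.15% of all promoters, 6.05% of those of genes called higher and 2.85% of those called lower. It was in 2 of the 16 promoters available for the Kupffer list.
C1qc: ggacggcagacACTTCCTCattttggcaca
Ctss: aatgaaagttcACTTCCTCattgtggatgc
These windows, at chr4:136893091-136893120 and chr3:95526773-95526802, carry it on the reverse strand. The C1qc gene, another C1q chain, was at 112 scaled FPKM in hepatocytes and at 13.3 and 16.7 in the livers, and Ctss, a protease of antigen-presenting cells, at 96.9 against 18.5 and 10.1. TATAAA was in 7.37% of all, 10.7% of the higher and 11.1% of the lower promoters. None of these shares was tested against another. A match is a description of these letters and not a site.

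**Figure D3:**
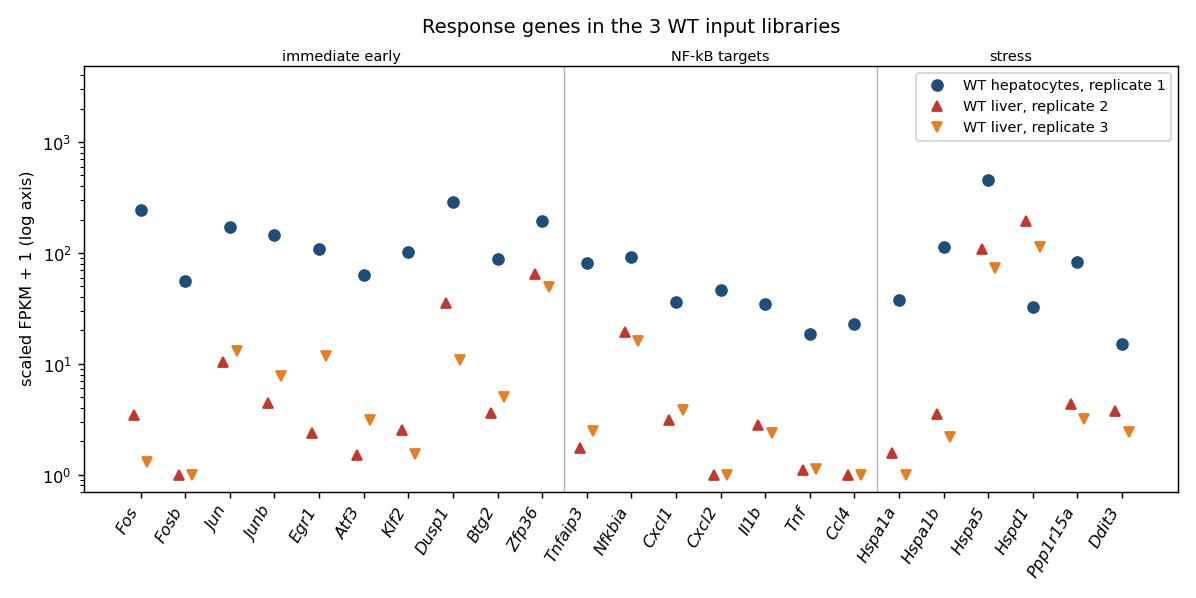
Scaled FPKM plus 1 (log axis) of immediate early genes, NF-kB targets and stress genes, with 1 point for each of the 3 WT input libraries. Fos is at 245 in the hepatocyte library and at 2.43 and 0.3 in the livers, Fosb, Cxcl2 and Ccl4 are listed at 0 in both livers, and Hspd1 lies the other way, at 31.6 against 194 and 113.

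Stress genes had calls in both directions. Of 15 heat shock genes 3 were called higher and 2 lower, with a median of 0.14 that was -0.90 without scaling. These shares, 20% and 13.3%, were near the 14.4% and 10.8% of all genes, and the median was 0.41 without liver replicate 2 and -0.10 without replicate 3. Hspa1b reached 112 scaled FPKM in hepatocytes, compared with 2.55 and 1.17 in the livers. Dnajb1 was at 34.8 scaled FPKM in hepatocytes and at 6.11 and 3.3 in the livers. Hspa1b is the inducible HSP70 gene, which has a near-identical copy in Hspa1a, and Dnajb1 is its cochaperone. The level of Hspd1 was 31.6 scaled FPKM in hepatocytes against 194 and 113 in the livers. For Hsp90ab1, hepatocytes had 151 scaled FPKM and the livers 163 and 117. The mitochondrial chaperonin Hspd1 was lower than both livers, and the constitutive Hsp90ab1 lay between them. In the unfolded protein and integrated stress response 7 of 21 genes were called higher and none lower, with a median of 0.53 that was -0.51 without scaling. Hepatocytes had 80.9 scaled FPKM of Ppp1r15a, and the livers 3.31 and 2.21. Hspa5 reached 449 scaled FPKM in hepatocytes, compared with 108 and 72.9 in the livers. Ppp1r15a recruits the phosphatase that restores translation, and Hspa5 is the HSP70 of the endoplasmic reticulum. Interferon genes had 14 of 26 called higher and 1 lower. Irf1 was at 72.8 scaled FPKM in hepatocytes and at 9.05 and 6.87 in the livers. The level of Cxcl10 was 39.2 scaled FPKM in hepatocytes against 1.14 and 3.96 in the livers. For Iigp1, hepatocytes had 26.3 scaled FPKM and the livers 65.8 and 104. Irf1 and Cxcl10 were above both livers, and Iigp1, a GTPase induced by interferon gamma, was under both. Of 14 p53 targets 11 passed the filter, of which 6 were called higher and none lower. Their median was 1.11, and 0.66 with no filter. Hepatocytes had 24.4 scaled FPKM of Cdkn1a, and the livers 0.873 and 1.85. Gdf15 reached 28.1 scaled FPKM in hepatocytes, compared with 0.499 and 1.7 in the livers. Cdkn1a stops the cell cycle, and Gdf15 is a secreted stress hormone. Of 13 NRF2 targets 1 was called higher and 1 lower, and the former was Hmox1, the heme-degrading enzyme that macrophages also make, at 52.4 against 6.22 and 6.02.

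Cytoskeletal genes, annexins and galectins were called higher for 10 and lower for 1 of 34 genes, with a median of 0.83 that was -0.10 without scaling. Tmsb4x was at 356 scaled FPKM in hepatocytes and at 44.3 and 37 in the livers. The level of Cd44 was 24.6 scaled FPKM in hepatocytes against 2.83 and 3.05 in the livers. For Actg1, hepatocytes had 199 scaled FPKM and the livers 14.3 and 30.5. Tmsb4x binds actin monomers, Cd44 is a hyaluronan receptor and Actg1 a cytoplasmic actin with many processed copies. Hepatocytes had 720.2 scaled FPKM of Actb, and the livers 440.4 and 609.7. Beta-actin, often used as a reference gene, was at 0.47 from the liver mean and was not called. Of 17 lysosomal genes 6 were called higher and none lower (median 0.73, and -0.28 without scaling), with Psap, the precursor of the saposins, at 295 against 72.8 and 80. Of 23 cell cycle genes 8 passed the filter and 4 were called higher, with a median of 1.26 that was 0.91 with no filter. Pcna, the replication clamp, was at 41 in hepatocytes and at 5.88 and 7.07 in the livers.

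Genes of the general cell machinery were split. Of 76 nuclear genes of the respiratory chain 27 were called lower and none higher (median -0.85), and of 76 mitochondrial ribosomal protein genes 14 were called lower and 1 higher. The shares called lower were 35.5% and 18.4%, against 10.8% of all genes and 28.6% of the bin of highest mean level. Ndufa1 reached 17.9 scaled FPKM in hepatocytes, compared with 131 and 165 in the livers. Uqcrb was at 31.9 scaled FPKM in hepatocytes and at 205 and 205 in the livers. These are subunits of complexes I and III. Cytosolic ribosomal protein genes, which have many processed copies, had 20 of 84 called higher and 5 lower, and their median of 0.64 turned to -0.33 without scaling. Proteasome and translation initiation genes had medians of -0.53 and -0.30. Histone genes of the replication-dependent class, whose mRNAs lack a poly(A) tail and whose copies are near-identical, were called higher for 39 of the 49 that passed the filter out of 68 and lower for 2, with 23 listed near 0 in at least 1 library. Their median was 2.69, and 1.76 with no filter. Of 17 entries for m6A writers, erasers and readers 0 were called higher and 1 lower. The level of Mettl3 was 5.61 scaled FPKM in hepatocytes against 6.59 and 8.31 in the livers. These levels rest on 12 fragments in hepatocytes and the log2 difference was -0.35. In the cKO libraries Mettl3 was at 5.01 in hepatocytes and at 21.4 and 10.5 in the livers on the scale of that set. The paper's allele deletes only some exons of Mettl3, and a level per gene does not show whether those exons were lost.

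Taken gene by gene, the most distant genes with at least 10 scaled FPKM in the higher group were led by the groups above. Among the 12 highest were Fos, Fosb, Klf2, Atf3, Cxcl2, Tnfaip3, Hspa1b and Csf1r, which were described with their lists. Hspa1a was at 36.9 in hepatocytes and 0.554 in liver replicate 2, with replicate 3 listed at 0. For Rgs1, hepatocytes had 126 scaled FPKM and the livers 0.66 and 2.26. Rgs1 damps G protein signals in leukocytes, and it lay at 86.3 times the liver mean. Dusp2, a MAP kinase phosphatase of immune cells, was at 40.7 and at 0.505 in liver replicate 2, with replicate 3 listed at 0. Scgb1a1, the secretoglobin of airway club cells, was at 76 in hepatocytes from 87 fragments and listed at 0 in both WT livers, and in the cKO set it was at 23.5 in hepatocytes and at 0.518 and 0 in the livers. Among the 12 lowest, Lars2 stood apart. Hepatocytes had 13.9 scaled FPKM of Lars2, and the livers 4984 and 3515. Lars2 is the mitochondrial leucyl-tRNA synthetase, and 178 fragments in hepatocytes stood against 120839 and 88806 in the livers. The livers had 3261253 and 3620784 estimated fragments over all genes. Whether so large a part of them came from Lars2 mRNA was not tested, so its values may not measure expression. In the cKO set it was at 24.6 in hepatocytes and at 3987 and 1602 in the livers, so this gene had the same direction in both genotypes. Fxyd1 reached 9.47 scaled FPKM in hepatocytes, compared with 216 and 232 in the livers. Aadat was at 2.68 scaled FPKM in hepatocytes and at 72 and 56.8 in the livers. The level of Acsm3 was 3.27 scaled FPKM in hepatocytes against 63.1 and 54.9 in the livers. Fxyd1 regulates the sodium pump, Aadat acts in lysine and kynurenine breakdown, and Acsm3 activates medium-chain fatty acids. Zc3h7a, Elovl3 and Atf7 were listed at or near 0 in hepatocytes and at 22, 7.99 and 13.7 scaled FPKM in liver replicate 2. Hsd3b5, Slco1a1, Fasn and Cyp7b1 were given with their lists, and the remaining gene of the 12 was Ggact, a gamma-glutamylamine cyclotransferase, also lower than both livers.

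**Figure D4:**
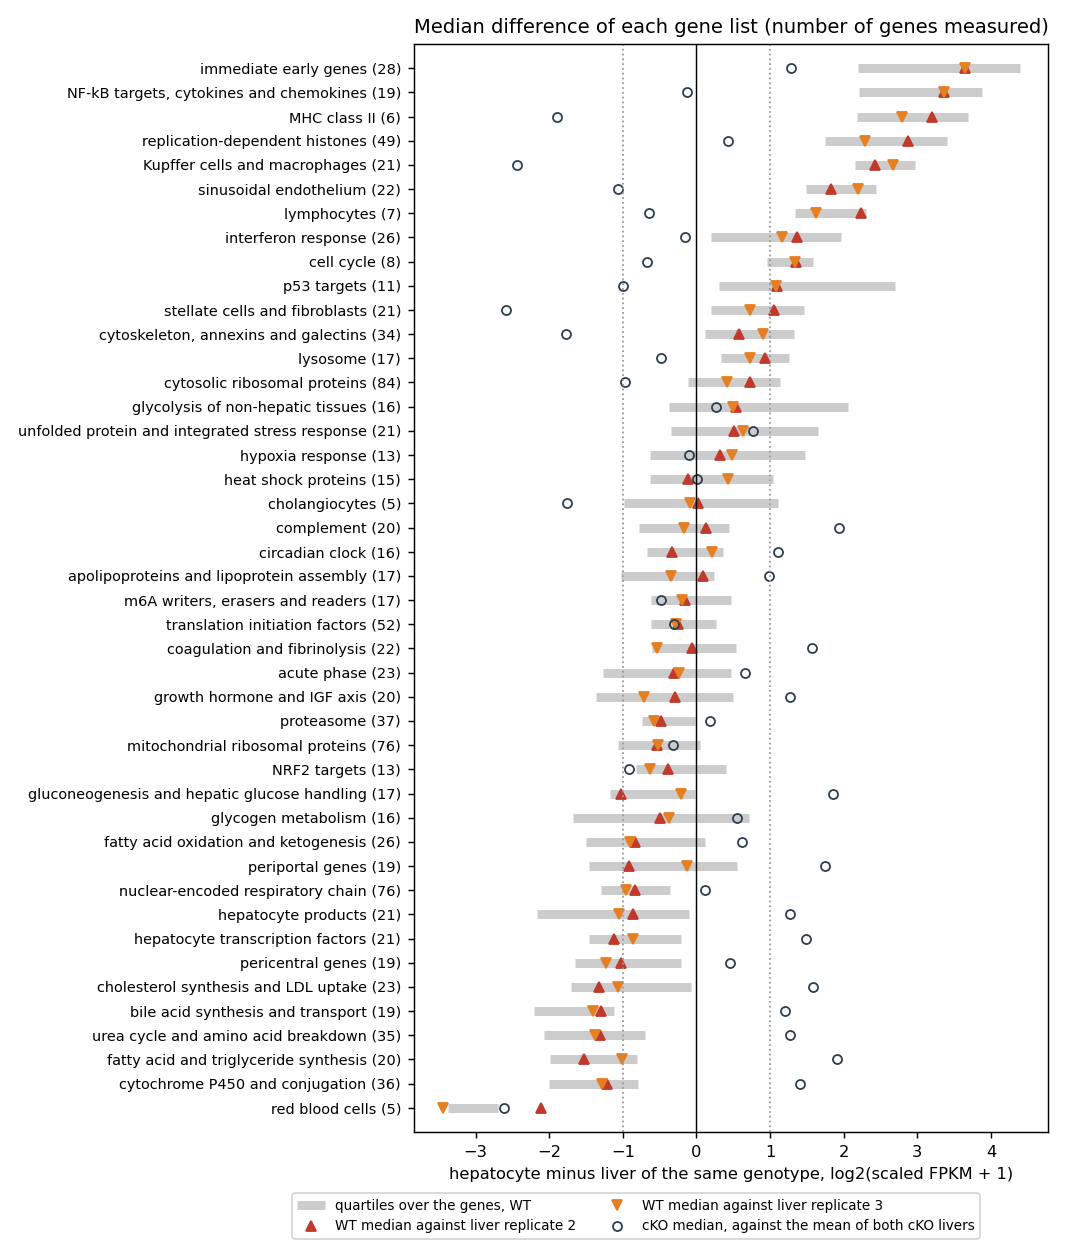
Median log2 difference of each list with at least 5 measured genes, hepatocytes minus liver, with triangles for the WT hepatocyte library against each WT liver, grey bars for the quartiles over the genes against the mean of both livers, and open circles for the cKO libraries. The mitochondrially encoded genes are left out. Immediate early genes lead on the right with a WT median of 3.77 against the mean of the livers, and red blood cell genes are lowest of the lists drawn at -2.86.

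The same comparison in the cKO libraries gave 1423 genes higher (13.1%) and 1421 lower (13%) of 10889 tested. Kupffer, endothelial and stellate genes lay on the other side there. Kupffer cell genes had a median of -2.44 in the cKO set, with 15 of 21 called lower, endothelial genes -1.06 and stellate genes -2.59. Clec4f was at 4.07 scaled FPKM in cKO hepatocytes and at 26.7 and 26.3 in the cKO livers. Hepatocyte products had a cKO median of 1.26, and Gys2 was at 66.6 in cKO hepatocytes and at 13.9 and 9.65 in the livers. The paper reports Gys2 as downregulated in cKO hepatocytes and in cKO livers. On these values, with each set scaled on its own, Gys2 was lower in cKO than in WT livers. Between the hepatocyte libraries it was higher in cKO, opposite to the paper. Whether the genotype labels of the hepatocyte libraries hold was not tested. Immediate early genes were higher in hepatocytes of both genotypes, with a cKO median of 1.28 and 14 of 28 called higher. Fos was at 105 in cKO hepatocytes and at 9.5 and 2.17 in the cKO livers. NF-kB targets had a cKO median of -0.13, with 2 called higher and 4 lower of 16. Of the 1314 genes called higher in WT hepatocytes and measured in both sets, 162 were called higher, 318 lower and 834 neither in cKO. Of the 1074 called lower in WT, 224 were called higher, 138 lower and 712 neither. With 1 hepatocyte library per genotype the difference between genotypes was not tested.

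A property of the transcripts moved with the difference. Genes were split into 5 bins of equal number by the GC content of their longest coding transcript in GENCODE M21, found for 10060 of the tested genes. The median difference was -0.26 in the bin of lowest GC and 0.42 in the bin of highest GC, where 23% of genes were called higher and 4.87% lower. Between the livers the same medians were 0.03 and -0.05. Genes called higher had a median GC of 52.6%, genes called lower 47.7% and the others 49.9%. The median difference was also -0.18 in the bin of shortest transcripts and 0.06 in the bin of the longest, and 0.21 in the bin of lowest and -0.55 in the bin of highest mean level. Differences were also centred within finer bins of GC than these 5, an alternative added after the values were seen. With that, 1328 genes were called higher, 1209 of them among the 1466 above. The immediate early and Kupffer medians were then 3.64 and 2.42.

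**Figure D5:**
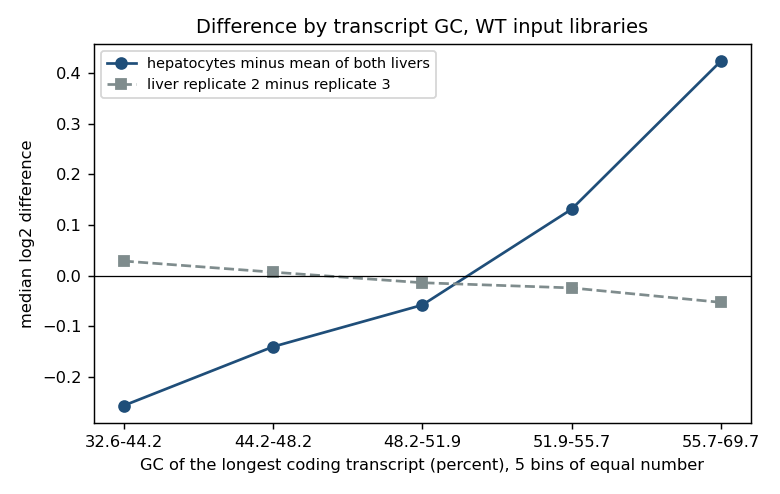
Median log2 difference in 5 bins of transcript GC content (percent), for hepatocytes minus the mean of both livers (circles) and for liver replicate 2 minus replicate 3 (squares). The hepatocyte line runs from -0.26 to 0.42, and the line between livers from 0.03 to -0.05.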

How the data were processed

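RNA from mouse liver and isolated hepatocytes was sequenced as input of m6A immunoprecipitation. Per the study's methods, adapters and low-quality reads were removed by the authors using cutadapt (1.9.3), and HISAT2 (2.0.4) served as aligner. The submitters' processing notes also name the build mm10, Cufflinks and Cuffdiff, with no role or version given in the sources used here, and the authors deposited FPKM per gene. The deposited count columns hold scaled signal rather than whole reads and differ in step between libraries, so they gave only estimated fragments (each value divided by the smallest step, 93.8% to 94.8% whole within 0.02) and 1 alternative, and no count test was run. Hepatocytes and livers stood in separately normalized tables. FPKM were divided by median-ratio factors, and log2(scaled FPKM + 1) was compared with Python (3.11.15), numpy (2.4.6), pandas (2.3.3) and scipy (1.17.1). The procedure was tested on simulated data. FPKM under 0.01 were treated as 0, since they may be failed estimates. The expression tables held no columns of the authors' own comparisons, and the peak tables of the immunoprecipitated libraries were not used here.

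The genes and lists were chosen with earlier results of these data known. Up to 4 called genes with the largest difference were named per list, with defining cell type markers and the 12 largest called differences in each direction with at least 10 FPKM in the higher group, leaving out a set of named multicopy families that did not include the HSP70 pair Hspa1a and Hspa1b. The lists of Y-linked and sex-biased genes and the following genes were chosen after their values were seen: Actb, Adh4, Bcl3, Btg2, C3, Ctgf, Cxcl1, Cyp7a1, Dgat1, Dusp1, Egr1, Esrra, Fah, G6pc, Gadd45g, Hk2, Hsp90ab1, Igf1, Iigp1, Il1b, Jun, mt-Co1, Nfkbia, Pygb, Pygl, Trib1 and Zfp36. Results of some genes are not reported here. Poisson intervals cover counting error only. Alternatives changed the scaling, pseudocount, filter, fold, value column and liver replicate.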

Additional observations from a re-analysis of the deposited data

Results flagged for a closer look

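In 7 lists the median difference between hepatocytes and liver had opposite directions in the 2 genotypes, at least 1 log2 unit from 0 against each liver. Kupffer cell and macrophage genes were at 2.44 in WT and at -2.44 in cKO. MHC class II genes were at 2.95 and -1.89. Metabolic lists had the reverse order. Fatty acid and triglyceride synthesis was at -1.38 in WT and 1.91 in cKO, cholesterol synthesis and LDL uptake at -1.16 and 1.59, and the urea cycle and amino acid breakdown at -1.37 and 1.26. Bile acid synthesis and transport was at -1.26 in WT and 1.21 in cKO, and cytochrome P450 and conjugation at -1.39 and 1.40. The difference between genotypes was not tested, since each has 1 hepatocyte library. The genotype labels of these libraries were taken as given.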

How the results depend on the processing

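With FPKM as deposited, 544 genes were called higher and 3394 lower, since the median of all genes then lay at -0.80. With a mean of at least 5 FPKM, 739 were higher and 621 lower of 5352 genes, and at 4-fold 445 and 211. The genes at least 2-fold apart between livers numbered 2067 with a pseudocount of 0.1 and 502 with at least 5 FPKM. The median of hepatocyte products was -2.01 as deposited, -0.010 under quantile normalization and -0.65 at 5 FPKM. For Kupffer cell genes these settings gave 1.53, 2.99 and 2.90, and a pseudocount of 0.1 and the count columns gave 2.89 and 2.77. For sinusoidal endothelium they gave 0.99, 2.37 and 2.39. Immediate early genes were at 2.75, 4.15 and 4.22, at 3.8 with upper-quartile scaling, 4.08 with the pseudocount, 3.52 with no filter and 3.97 from count columns. In alternatives added after seeing the data, they were at 3.66 without genes near 0 and at 3.64 with GC-centred differences. With 1 liver left out a call needs a 2-fold gap from the remaining liver only, which is a looser rule. Counts then ran from 1975 to 2005 higher and from 1541 to 1630 lower. Medians ran from -1.07 to -0.85 for hepatocyte products and from 2.38 to 2.64 for Kupffer cells. For endothelium they ran from 1.82 to 2.16, and for immediate early genes from 3.58 to 3.61. Of 497 pairs of list and setting 466 kept the sign of the median, and none of the 19 lists at least 1 log2 unit from 0 changed sign. The cause of these shifts was not tested beyond what the settings themselves leave out. No paired analysis was possible because the hepatocyte library is replicate 1 and the livers are replicates 2 and 3, so the groups share no number. A single hepatocyte library, a median of 11.9 fragments at 1 FPKM and values listed at 0 limit low genes most.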
